A study of Homo sapiens with 9 samples.

Results

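Polycomb repressive complex 2 (PRC2) is represented here by 10 genes, which were chosen by symbol as its core subunits and the accessory subunits *EZH1*, *EZH2*, *SUZ12*, *EED*, *RBBP4*, *RBBP7*, *MTF2*, *PHF19*, *JARID2* and *AEBP2*. All 10 were listed in both deposited count tables, among 13017 genes in the sh1-*TUG1* table, 12953 in the sh2-*TUG1* table and 12854 in both. All 10 passed the filter on low counts, which removed 0 genes in each comparison. The lowest total of a gene in a table was 152 and 140 counts, so genes with few counts were already missing from the deposited tables. The choice was by symbol and used no cut on their values, but it was made with earlier results of these data known.

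The cells were HepG2, an established human liver cancer line that grows as epithelial-like cells. All 3 groups carried a lentiviral Tet-pLKO-Puro vector, which expresses its short hairpin RNA (shRNA) when doxycycline (DOX) is added. sh-Con cells carried a control shRNA, and sh1-*TUG1* and sh2-*TUG1* cells carried different shRNAs against the long non-coding RNA *TUG1*. The DOX dose and time of the sequenced cells are not given in the sources used here, and neither is whether each line came from 1 clone. Each group had 3 RNA-seq libraries, which the study calls technical replicates, so the *P*-values measure only the spread between these libraries. *TUG1* itself was not analysed here, so the knockdown was not checked in these libraries.

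PRC2 places methyl groups on lysine 27 of histone H3, a mark of genes kept silent by Polycomb proteins. EZH1 or EZH2 is the methyltransferase, and it works only together with EED and SUZ12, while RBBP4 or RBBP7 binds histones. MTF2, PHF19, JARID2 and AEBP2 are accessory subunits that help to bring the complex to chromatin or raise its activity. *EZH2* is known as a gene of dividing cells and is often high in liver cancer. *TUG1* is among the long non-coding RNAs that have been described as bound by PRC2, so its knockdown raises the question of whether the genes of the complex change with it.

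The libraries held 33051617 to 39393293 counts. Levels are given as CPM, which are counts scaled to a common library total after TMM normalization. Pearson r of log2 CPM between libraries was 0.988 to 0.991 within a group and 0.967 to 0.983 between groups. No library stood apart by this measure. Of 8 hepatocyte markers all were listed, with *ALB* (albumin) at 12780 to 25399 CPM and *AFP* (alpha-fetoprotein) at 4685 to 6683 CPM. Of 8 markers of other cell types only *PECAM1* and *VWF* were listed, with a summed level of 8.75 to 9.46 CPM in sh-Con, 11.3 to 12.2 in sh1-*TUG1* and 12.2 to 13.6 in sh2-*TUG1*; the leukocyte gene *PTPRC*, the fibroblast genes *COL1A1* and *COL1A2* and 3 others were not listed. With sh1, 5 hepatocyte markers rose and 2 fell, where 24.8% of all genes passed the test. With sh2, 3 rose and 4 fell, where 43.5% passed. *VWF* rose with both (1.40 and 1.65 on the log2 scale). Their part in the results for PRC2 genes was not tested.

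The start regions of the members are shown first, so that motifs present in some members and not in others can be read beside their values. RefSeq promoter windows (build GRCh38.p14, from 250 bases before to 50 bases after a start site) were found for all 10 genes, 15 windows in all. They were searched on both strands for TTTCCCGC, TTTCGCGC, TTTGCCGC and TTTGGCGC, letters bound by E2F factors of the cell cycle. At least 1 of these stood in a window of 6 of the 10 members, against 3.99% of the 27305 genes with a window. Counted by window it was 6 of 15, against 3.31% of 35116. Genes outside the count tables are part of this background, so it is not a share of genes expressed in these cells. The stretches with those letters are shown 5′ to 3′ on the strand of the gene, with the match in capitals.

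*EZH1*, chr17:42745137-42745166, minus strand: gcggggttttgGCGGCAAAtgacagtagtg
*EZH2*, chr7:148884272-148884301, minus strand: gggctgccgcgTTTGGCGCtcggtccggtc
*SUZ12*, chr17:31936807-31936836, plus strand: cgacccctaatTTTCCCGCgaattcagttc
*MTF2*, chr1:93079277-93079306, plus strand: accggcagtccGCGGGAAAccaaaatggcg
*PHF19*, chr9:120877322-120877351, minus strand: gtcaataattcGCGGGAAAacgcgaaaaag
*AEBP2*, chr12:19440438-19440467, plus strand: caaggcgacgtTTTGCCGCgatccccctgc

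*EZH1*, *MTF2* and *PHF19* held the letters on the opposite strand, and *PHF19* held them only in the second of its windows. *EED*, *JARID2*, *RBBP4* and *RBBP7* had no match in these windows. CCAAT, the box bound by NF-Y, was found on either strand in 7 of the 10 members, against 39.7% of all genes with a window. TTTGAA, a letter string of cell cycle promoters called CHR, was found in 1 member, *SUZ12*, against 18.2% of all genes.

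*EZH2* held 4 CCAAT boxes, at 94, 66, 47 and 13 bases before its start site. Its bases upstream of both the RefSeq start site and the GENCODE start of the gene, chr7:148884322-148884491 on the minus strand, hold 3 of them. *SUZ12* held all 3 kinds of motif within 200 bases upstream of the start, chr17:31936807-31937006 on the plus strand. Capitals mark the E2F letters, TTTGAA (here as TTCAAA) and the CCAAT box in the 5′ to 3′ order of *SUZ12*, and the CCAAT boxes alone in *EZH2*.

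*EZH2*: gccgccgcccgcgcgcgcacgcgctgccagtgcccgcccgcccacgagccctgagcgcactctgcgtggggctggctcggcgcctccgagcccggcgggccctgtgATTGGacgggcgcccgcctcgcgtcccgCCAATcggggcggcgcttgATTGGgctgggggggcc
*SUZ12*: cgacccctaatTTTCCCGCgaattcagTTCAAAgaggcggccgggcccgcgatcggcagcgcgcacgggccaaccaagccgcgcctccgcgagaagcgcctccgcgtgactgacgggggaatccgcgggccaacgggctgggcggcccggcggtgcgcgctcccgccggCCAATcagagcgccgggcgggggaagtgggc

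*RBBP4* and *RBBP7*, which encode alternative histone-binding subunits, had CCAAT boxes and no E2F letters. *RBBP4* held 2 boxes in its first window, at chr1:32651091-32651120 and chr1:32651142-32651171 on the plus strand. *RBBP7* held 1 box in each of its 2 windows, the first at chrX:16870400-16870429 on the minus strand. None of these matches shows that a factor binds there in HepG2.

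*RBBP4*, first box: ccgcgcgtctggATTGGtcgcgaacgcggc
*RBBP4*, second box: aggagcgctcccATTGGctgatgttggcgc
*RBBP7*: ccgccgcgcgtcATTGGtctcggcgccgga

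The subunits were present at unequal levels in sh-Con cells. On the scale of CPM per kb of exon sequence, *RBBP4* was highest at 18.9 ± 0.51 (SD, *n* = 3) and *RBBP7* next at 10.2 ± 0.55. *SUZ12* followed at 6.25 ± 0.12, *EZH2* at 5.12 ± 0.40, *AEBP2* at 4.72 ± 0.25 and *MTF2* at 4.45 ± 0.43. The ranges of *EZH2* and *AEBP2* overlapped, as did those of *AEBP2* and *MTF2*. *JARID2* lay lower at 3.81 ± 0.068, and *EZH1*, *EED* and *PHF19* were lowest at 1.65 ± 0.17, 1.5 ± 0.24 and 1.31 ± 0.099. The ranges of *EZH1* and *EED* overlapped, and so did those of *EED* and *PHF19*.

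The same order held in sh1-*TUG1* and sh2-*TUG1* cells, except that *EED* and *EZH1* changed places within overlapping ranges. *RBBP4* and *RBBP7* are also subunits of other chromatin complexes, so their RNA is not that of PRC2 alone. The exon length is that of all isoforms of a gene joined, so a level per kb is a rough guide to the number of transcripts.

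Few of the 10 genes moved with either shRNA, and those that did moved by under 1.5-fold. In sh1-*TUG1* cells against sh-Con, 1 of 10 rose and 0 fell at an adjusted *P* under 0.05 (edgeR quasi-likelihood test), where 24.8% of all genes tested passed, 12.5% higher and 12.3% lower. In sh2-*TUG1* cells against sh-Con, 3 rose and 0 fell, where 43.5% of all genes passed, 21.6% higher and 21.9% lower. The member that passed with sh1 was *RBBP7*, and those that passed with sh2 were *SUZ12*, *EZH2* and *RBBP4*. Both comparisons rest on the same 3 sh-Con libraries.

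**Figure D1:**
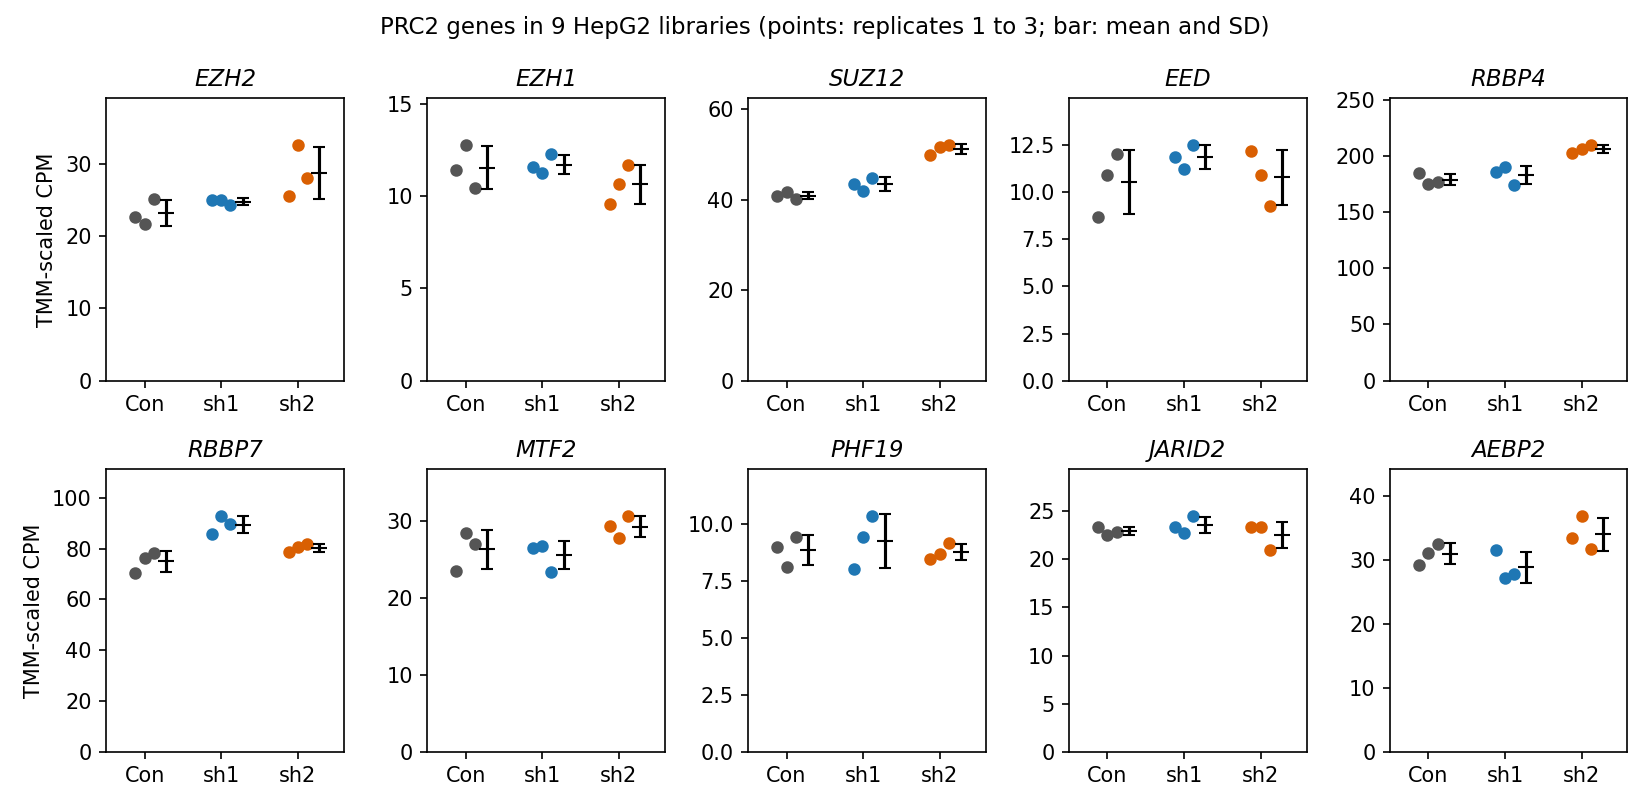
TMM-scaled CPM (y axis, from 0, a scale of its own for each gene) of the 10 PRC2 genes in sh-Con, sh1-*TUG1* and sh2-*TUG1* libraries (x axis). Points are the 3 replicates of a group, and the bar beside them is their mean with its SD; the sh2-*TUG1* points of *SUZ12* and *RBBP4* lie above all others, and the sh1-*TUG1* points of *RBBP7* lie above all others.

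*SUZ12* encodes the scaffold that holds the core of the complex together, and it showed the clearest change. Its level was 40.9, 41.7 and 40.2 CPM in the sh-Con libraries, 43.4, 41.9 and 44.9 in sh1-*TUG1* and 49.9, 51.7 and 52.0 in sh2-*TUG1*. The 3 sh2-*TUG1* libraries lay above all 6 others, and the sh1-*TUG1* libraries lay just above the controls. The log2 fold change was 0.32 (SE 0.053, adjusted *P* = 0.00112) in sh2-*TUG1* against sh-Con, a fold of 1.25. In sh1-*TUG1* it was 0.085 (SE 0.053, adjusted *P* = 0.285), with a 95% interval of −0.035 to 0.20. Between the lines *SUZ12* was higher in sh2-*TUG1* by 0.24 (SE 0.049, adjusted *P* = 0.00225).

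*EZH2*, the methyltransferase of dividing cells, was at 22.6, 21.7 and 25.2 CPM in sh-Con, 25.0, 25.0 and 24.2 in sh1-*TUG1* and 25.6, 32.6 and 28 in sh2-*TUG1*. The sh2-*TUG1* libraries were the most spread, and the lowest of them lay just above the highest control. *EZH2* rose in sh2-*TUG1* by 0.31 on the log2 scale (SE 0.097, adjusted *P* = 0.0281). That call rested on single libraries: it was 0.21 (adjusted *P* = 0.112) without sh2-*TUG1* replicate 2, 0.29 (adjusted *P* = 0.0598) without sh-Con replicate 1 and 0.26 (adjusted *P* = 0.0949) without sh-Con replicate 2. In sh1-*TUG1* the difference was 0.094 (SE 0.073, adjusted *P* = 0.388). Between the lines it was 0.21 (SE 0.087, adjusted *P* = 0.0663), with no overlap of the libraries. It was 0.12 (adjusted *P* = 0.286) without sh2-*TUG1* replicate 2 and 0.29 (adjusted *P* = 0.0228) without sh2-*TUG1* replicate 1.

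*EZH1*, the other methyltransferase, which is less tied to cell division, did not pass in any comparison. It was at 11.4, 12.8 and 10.4 CPM in sh-Con, 11.6, 11.3 and 12.3 in sh1-*TUG1* and 9.57, 10.7 and 11.7 in sh2-*TUG1*, and all groups overlapped. The log2 fold change was 0.022 (95% interval −0.21 to 0.26) in sh1-*TUG1* and −0.12 (−0.38 to 0.15) in sh2-*TUG1*.

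*EED*, the subunit that binds the methylated histone, varied among the control libraries more than among the other groups. It was at 8.66, 10.9 and 12 CPM in sh-Con, 11.9, 11.3 and 12.5 in sh1-*TUG1* and 12.2, 10.9 and 9.28 in sh2-*TUG1*. The coefficient of variation in sh-Con was 16.2%, where read sampling alone gives 5.22% at its mean of 367 counts. The groups overlapped, with log2 fold changes of 0.17 (95% interval −0.12 to 0.46) in sh1-*TUG1* and 0.029 (−0.30 to 0.36) in sh2-*TUG1*. Under library size alone as the scaling, the sh2-*TUG1* value turned to −0.0077.

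*RBBP4* and *RBBP7*, the histone-binding pair, moved in different lines. *RBBP4* was at 184, 175 and 177 CPM in sh-Con, 185, 190 and 174 in sh1-*TUG1* and 202, 206 and 210 in sh2-*TUG1*. Its sh2-*TUG1* libraries lay above all 6 others, while the other groups overlapped. It rose in sh2-*TUG1* by 0.20 on the log2 scale (SE 0.045, adjusted *P* = 0.00547), a fold of 1.15, and was higher there than in sh1-*TUG1* by 0.17 (SE 0.043, adjusted *P* = 0.00801). In sh1-*TUG1* against sh-Con it differed by 0.032 (95% interval −0.073 to 0.14, adjusted *P* = 0.668). With library size alone as the scaling, the difference between the lines was 0.11 (adjusted *P* = 0.0585).

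*RBBP7* was at 70.5, 76.3 and 78.5 CPM in sh-Con, 85.9, 92.7 and 89.7 in sh1-*TUG1* and 78.5, 80.8 and 81.8 in sh2-*TUG1*. The sh1-*TUG1* libraries lay above all 6 others, and the lowest sh2-*TUG1* library was level with the highest control. It rose in sh1-*TUG1* by 0.25 (SE 0.058, adjusted *P* = 0.0118), a fold of 1.19, though the call was lost without sh1-*TUG1* replicate 2 (0.23, adjusted *P* = 0.0595). In sh2-*TUG1* against sh-Con it differed by 0.095 (95% interval −0.034 to 0.22, adjusted *P* = 0.210). Between the lines it was lower with sh2 by 0.15 on the log2 scale (−0.15, SE 0.052, adjusted *P* = 0.0321), a call lost when any of 4 libraries was left out (−0.13 to −0.16, adjusted *P* of 0.0683 to 0.119).

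The 3′ end of *RBBP7* (X:16839283-16870414, minus strand) overlaps *TXLNG* on the other strand, and the sources used here do not say that strand was used in counting. *TXLNG* differed by −0.091 (adjusted *P* = 0.307) in sh1-*TUG1*, 0.094 (adjusted *P* = 0.218) in sh2-*TUG1* and 0.19 (adjusted *P* = 0.0132) between the lines, where *RBBP7* had the opposite sign. *RBBP4* overlaps *SYNC* on the other strand, which was not among the genes in both tables. *RBBP4* has 6 named pseudogenes, and *SUZ12* and *EZH2* have 1 named pseudogene each. Reads shared with those copies could not be told apart.

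The accessory subunits gave no call against sh-Con. *MTF2*, which binds CpG-rich DNA, was at 23.5, 28.4 and 27.0 CPM in sh-Con, 26.5, 26.7 and 23.4 in sh1-*TUG1* and 29.3, 27.8 and 30.6 in sh2-*TUG1*. Its sh2-*TUG1* libraries overlapped the controls and lay above those of sh1-*TUG1*. The difference between the lines was 0.20 (SE 0.080, adjusted *P* = 0.0676) in the fit of all 9 libraries, and 0.19 (adjusted *P* = 0.0425) when the 6 libraries of the knockdown lines were fitted alone.

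*AEBP2*, a zinc-finger subunit of the PRC2 form that also holds JARID2, was at 29.3, 31.1 and 32.6 CPM in sh-Con, 31.7, 27.2 and 27.8 in sh1-*TUG1* and 33.5, 36.9 and 31.8 in sh2-*TUG1*. The controls overlapped both lines, while the lines did not overlap each other. It differed by −0.10 (95% interval −0.27 to 0.066) in sh1-*TUG1* and 0.13 (−0.032 to 0.30) in sh2-*TUG1*, and it was higher in sh2-*TUG1* than in sh1-*TUG1* by 0.24 (SE 0.076, adjusted *P* = 0.0250). That call was lost under library size alone (0.17, adjusted *P* = 0.0900) and without sh2-*TUG1* replicate 2, sh1-*TUG1* replicate 2 or sh1-*TUG1* replicate 3 (0.18 to 0.21, adjusted *P* of 0.0886 to 0.108).

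*JARID2* guides the complex to its targets and is itself methylated by it. In sh-Con it had the lowest coefficient of variation of the 10 genes, 1.79%, below the 3.55% that read sampling alone gives. It was at 23.3, 22.5 and 22.8 CPM in sh-Con, 23.4, 22.8 and 24.4 in sh1-*TUG1* and 23.3, 23.3 and 21.0 in sh2-*TUG1*, and the groups overlapped. Its log2 fold change was 0.039 (95% interval −0.10 to 0.18) in sh1-*TUG1* and −0.026 (−0.18 to 0.13) in sh2-*TUG1*. *PHF19*, a relative of *MTF2* that binds a methylated histone of active genes, was the lowest member, at 8.0 to 10.3 CPM over the 9 libraries, and its groups overlapped. Its intervals were the widest of the accessory subunits, −0.22 to 0.35 around 0.066 in sh1-*TUG1* and −0.26 to 0.23 around −0.014 in sh2-*TUG1*.

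**Figure D2:**
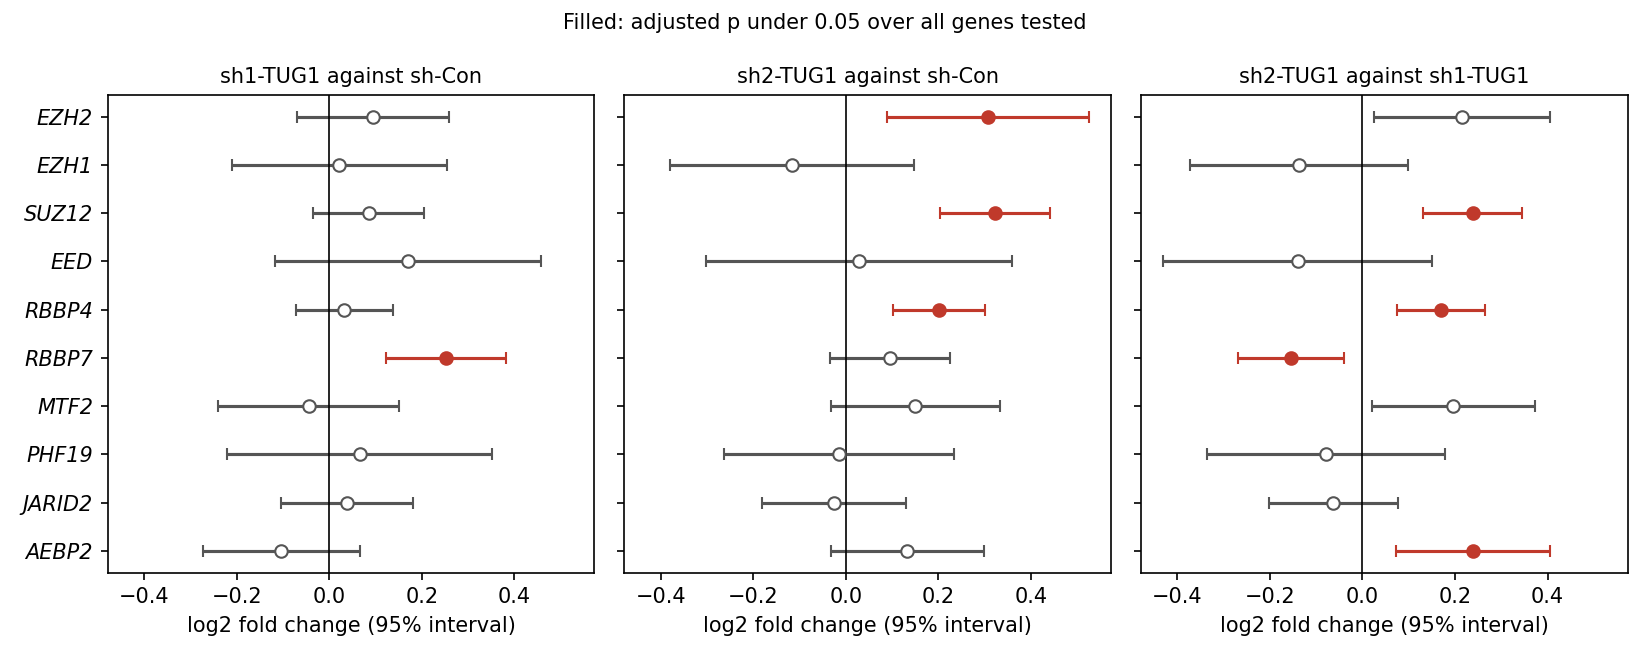
Log2 fold change (x axis) of each PRC2 gene (y axis) in the 3 comparisons, with its 95% interval from the edgeR fit as a bar; filled points are members that passed the test. *RBBP7* is the filled point with sh1, *EZH2*, *SUZ12* and *RBBP4* are those with sh2, and between the lines *SUZ12*, *RBBP4* and *AEBP2* lie to the right of 0 and *RBBP7* to the left.

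Between the lines, sh2-*TUG1* against sh1-*TUG1*, 3 members were higher and 1 was lower, where 42.7% of all genes passed, 21.0% higher and 21.7% lower. The libraries of the compared groups did not overlap for 2 members in sh1-*TUG1* against sh-Con, both above (41.5% of all genes did not overlap, 21.3% above and 20.2% below), for 3 in sh2-*TUG1* against sh-Con, all above (54.4%, 27.1% above and 27.3% below), and for 6 between the lines, 5 above and 1 below (55.4%, 27.8% above and 27.6% below). The members that passed, 1, 3 and 4 of 10, were thus a share below or near that of all genes in each comparison. No member met the criteria of a DEG, an adjusted *P* under 0.05 with a fold change over 1.5, which 4.96% of all genes met with sh1, 13.3% with sh2 and 10.6% between the lines.

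The 10 genes had a median log2 fold change of 0.052 with sh1, where that of all genes was 0.0027, and 0.11 with sh2, where that of all genes was −0.0048. Between the lines it was 0.054 against −0.00067 for all genes. Summed over the 10 genes, the level was 424 to 435 CPM in sh-Con, 444 to 458 in sh1-*TUG1* and 473 to 489 in sh2-*TUG1*. These ranges did not overlap on the TMM scale. The TMM factors were 1.020 to 1.023 in sh1-*TUG1* and 0.974 to 0.980 in sh2-*TUG1*, and without them the ranges of the lines would overlap. *RBBP4* and *RBBP7* make up most of this sum.

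Ratios of alternative subunits within a library do not depend on how libraries are scaled. The count of *RBBP7* was 0.382, 0.435 and 0.443 times that of *RBBP4* in the sh-Con libraries, 0.464, 0.488 and 0.516 times in sh1-*TUG1* and 0.388, 0.392 and 0.390 times in sh2-*TUG1*. The sh1-*TUG1* libraries lay above all others. The sh2-*TUG1* libraries lay close to each other and within the range of the controls, which reached below them only through sh-Con replicate 1. On the log2 scale the mean ratio was −1.25 ± 0.12 (SD, *n* = 3) in sh-Con, −1.03 ± 0.077 in sh1-*TUG1* and −1.36 ± 0.0066 in sh2-*TUG1*. It differed from sh-Con by 0.22 in sh1-*TUG1* (two-sided exact permutation *P* = 0.1) and −0.10 in sh2-*TUG1* (exact *P* = 0.4), and the lines differed by −0.33 (exact *P* = 0.1). With 3 libraries against 3, 0.1 is the smallest *P* that this test can give.

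The count of *EZH2* was 1.98, 1.70 and 2.41 times that of *EZH1* in sh-Con, 2.16, 2.22 and 1.97 times in sh1-*TUG1* and 2.67, 3.05 and 2.39 times in sh2-*TUG1*. Only the lines did not overlap each other, since sh-Con replicate 3 reached into the sh2-*TUG1* range. The mean log2 ratio was 1.01 ± 0.25 in sh-Con, 1.08 ± 0.092 in sh1-*TUG1* and 1.43 ± 0.18 in sh2-*TUG1*. It differed from sh-Con by 0.073 with sh1 (exact permutation *P* = 0.7) and by 0.42 with sh2 (exact permutation *P* = 0.2), and the difference was 0.35 between the lines (exact permutation *P* = 0.1).

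*PHF19* and *MTF2*, relatives that compete for the same place in the complex, had a mean log2 ratio of −1.57 ± 0.22 in sh-Con, −1.47 ± 0.27 in sh1-*TUG1* and −1.74 ± 0.056 in sh2-*TUG1*. All groups overlapped in this ratio. *PHF1*, a gene of an accessory subunit outside the chosen members, was not part of it, and its values are given below. The exact permutation *P* was 0.7 with sh1, 0.4 with sh2 and 0.2 between the lines.

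**Figure D3:**
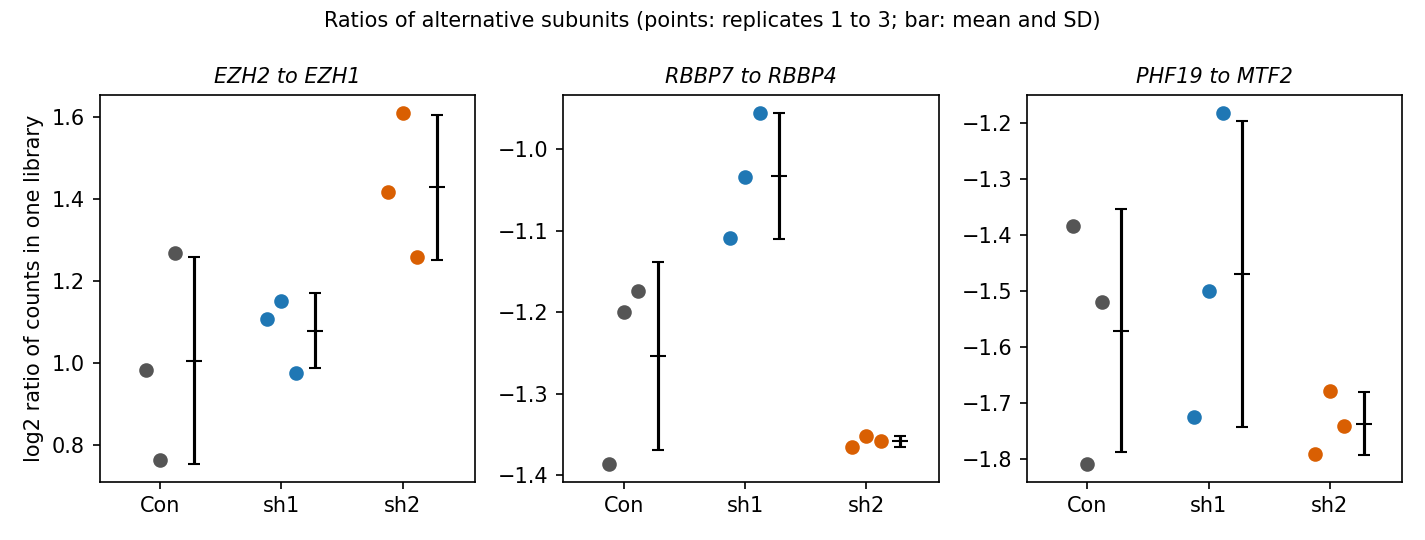
Log2 ratio of the counts of 2 alternative subunits in each library (y axis, not from 0) for sh-Con, sh1-*TUG1* and sh2-*TUG1* (x axis), with points for the 3 replicates and a bar for their mean and SD. The 3 sh1-*TUG1* points of the *RBBP7* to *RBBP4* ratio lie above all others, and the *EZH2* to *EZH1* ratio of sh2-*TUG1* lies above that of sh1-*TUG1* but overlaps sh-Con.

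Genes of accessory subunits of PRC2 outside the 10 members were higher with sh2. Of 5 such genes, 4 were listed (*EPOP*, *LCOR*, *LCORL* and *PHF1*). Counts are per gene, so isoforms outside PRC2, as of *LCOR* or *LCORL*, could not be told apart. Of the 4 genes, 1 rose with sh1, all 4 rose with sh2 and all 4 were higher with sh2 than with sh1. Their median log2 fold change was 0.13 with sh1 and 0.45 with sh2. Over all genes tested, 12.5% rose with sh1, 21.6% rose with sh2 and 21.0% were higher with sh2 than with sh1. *EPOP*, which links PRC2 to elongin, rose by 0.20 with sh1 (adjusted *P* = 0.00943) and by 0.55 with sh2 (adjusted *P* = 1.67e-05). The sh1 call of *EPOP* was lost without sh1-*TUG1* replicate 2 (0.18, adjusted *P* = 0.0541). *PHF1*, named after its values were seen, had a mean of 51.0 CPM in sh-Con and 81.2 in sh2-*TUG1* in the fit of those groups. It rose by 0.67 with sh2 (adjusted *P* = 2.59e-05), a fold of 1.59, and so met the criteria of a DEG, unlike the chosen members. With sh1 its difference of 0.17 did not pass (adjusted *P* = 0.0591).

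The 22 genes of PRC1, the complex that ubiquitinates histone H2A at Polycomb targets, were all listed. With sh1, 2 rose and 3 fell, and with sh2, 5 rose and 2 fell, with medians of 0.026 and 0.054. The share that passed lay below that of all genes with each shRNA (24.8% and 43.5%). *CBX2*, a reader of the PRC2 mark, fell by 0.64 on the log2 scale with sh1 (−0.64, adjusted *P* = 0.000325) and by 0.84 with sh2 (−0.84, adjusted *P* = 2.29e-05).

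Of 15 genes whose products oppose Polycomb silencing 14 were listed, among them demethylases of the PRC2 mark, MLL-type methyltransferases and SWI/SNF subunits. With sh1, 2 rose and 1 fell, and with sh2, 8 rose and 1 fell (medians 0.12 and 0.20). The share of all genes that passed was 24.8% with sh1 and 43.5% with sh2. *KDM6A*, which removes the PRC2 mark, rose by 0.21 with sh1 (adjusted *P* = 0.0342) and by 0.89 with sh2 (adjusted *P* = 5.84e-06), and the lines differed by 0.68 (adjusted *P* = 3.74e-06). *KMT2A*, a methyltransferase of histone H3 lysine 4, rose by 0.18 (adjusted *P* = 0.0345) and 0.24 (adjusted *P* = 0.00633), while *SMARCA4*, a SWI/SNF ATPase, fell by 0.26 (−0.26, adjusted *P* = 0.0325) and 0.29 (−0.29, adjusted *P* = 0.0163). The sh1 calls of these 3 genes depended on single libraries. That of *KDM6A* was lost without sh1-*TUG1* replicate 2 or 3 or sh-Con replicate 2 or 3 (adjusted *P* of 0.0889 to 0.137), that of *KMT2A* without sh1-*TUG1* replicate 1 or 3 or sh-Con replicate 2 or 3 (0.0733 to 0.121), and that of *SMARCA4* without any 1 of the sh1-*TUG1* libraries (0.0643 to 0.116). The sh2 call of *SMARCA4* was lost without sh2-*TUG1* replicate 1 or 2 (adjusted *P* of 0.0656 and 0.0634).

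Among 21 genes of other complexes that hold RBBP4 or RBBP7, 2 rose and 1 fell with sh1. With sh2, 5 rose and 3 fell. The medians were 0.016 and −0.030, and the share that passed lay below that of all genes (24.8% and 43.5%). *SAP30* of the SIN3 deacetylase complex fell by 0.51 with sh1 (−0.51, adjusted *P* = 0.0165) and by 0.81 with sh2 (−0.81, adjusted *P* = 0.000740). *GATAD2B* of the NuRD complex rose by 0.40 (adjusted *P* = 0.00538) and 0.48 (adjusted *P* = 0.00220). *MTA3*, also of NuRD, moved in opposite directions, rising by 0.24 with sh1 (adjusted *P* = 0.0149) and falling by 0.20 with sh2 (−0.20, adjusted *P* = 0.0169). The sh1 call of *SAP30* was lost without sh1-*TUG1* replicate 1 or 2 or sh-Con replicate 2 (adjusted *P* of 0.0561 to 0.0647). The sh1 call of *MTA3* was lost without sh1-*TUG1* replicate 1 or sh-Con replicate 2 or 3 (0.0552 to 0.0663), and its sh2 call without sh2-*TUG1* replicate 1 (0.0687).

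Of 38 genes known as PRC2 targets in other cells only 21 were listed, and of its *HOX* genes only *HOXA5* was. Genes with few counts are not in the tables, so targets silent in these cells would be missing here. Of the 21, 5 rose and 5 fell with sh1 and 8 rose and 4 fell with sh2, with medians of 0.21 and 0.059. Among all genes tested, 24.8% passed with sh1 and 43.5% with sh2. *GATA4*, a transcription factor of endoderm, rose by 0.82 with sh1 (adjusted *P* = 4.61e-05) and 1.0 with sh2 (adjusted *P* = 8.48e-06), and *GATA6* rose by 0.88 (adjusted *P* = 0.00321) and 0.57 (adjusted *P* = 0.0222). *DAB2IP* and *CXXC5* also rose with both shRNAs. *IGF2*, a fetal growth factor, fell by 0.70 with sh1 (−0.70, adjusted *P* = 4.41e-05) and by 1.0 with sh2 (−1.0, adjusted *P* = 3.39e-06), and *DKK1* fell with both. Both changes of a gene are taken against the same sh-Con libraries, which favours the same direction. The share of all genes that agreed in direction is not given here. Of the 8 listed targets that passed with both shRNAs, 7 moved in the same direction. The exception, named after its values were seen, was *CDKN2B*, an inhibitor of cell cycle kinases, which fell by 0.27 with sh1 (−0.27, adjusted *P* = 0.0277) and rose by 0.35 with sh2 (adjusted *P* = 0.00322), with a difference of 0.62 between the lines (adjusted *P* = 3.14e-05). The sh2 call of *GATA6* was lost without sh2-*TUG1* replicate 2 or 3 or sh-Con replicate 1 or 3 (adjusted *P* of 0.0506 to 0.0618), and the sh1 call of *DKK1* without sh1-*TUG1* replicate 1 or 2 or sh-Con replicate 2 or 3 (0.0518 to 0.0833). Binding of PRC2 and its histone mark were not measured in these cells.

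Of 34 listed genes of the cell cycle, 10 rose and 1 fell with sh1 (median 0.18). With sh2, 3 rose and 17 fell (median −0.35), and between the lines 2 were higher with sh2 and 25 lower (median −0.66). The shares of all genes that passed were 24.8% with sh1, 43.5% with sh2 and 42.7% between the lines. *TOP2A*, a topoisomerase of dividing cells, rose by 0.36 with sh1 (adjusted *P* = 0.0112) and fell by 1.22 with sh2 (−1.22, adjusted *P* = 3.13e-05). *MYBL2* rose by 0.48 (adjusted *P* = 0.0430) and fell by 0.75 (−0.75, adjusted *P* = 0.00623), and *PLK1* rose by 0.41 (adjusted *P* = 0.0141) and fell by 0.52 (−0.52, adjusted *P* = 0.00153). In the same libraries *EZH2* rose with sh2, a call that rested on single libraries. Between the lines *TOP2A* differed by −1.58 (adjusted *P* = 5.41e-07), while the 0.21 of *EZH2* did not pass (adjusted *P* = 0.0663). *CCNE1* and *MCM3*, genes of the start of S phase, rose with both shRNAs (0.33 and 0.33 with sh1, 0.39 and 0.31 with sh2). These 5 were all the genes of the list that passed with both shRNAs, 3 of them in opposite directions. With sh1, the call of *TOP2A* was lost without sh1-*TUG1* replicate 3 (adjusted *P* = 0.0531), and that of *PLK1* without the same library (0.0604) or sh-Con replicate 2 (0.0545). The call of *MYBL2* with sh1 was lost without sh1-*TUG1* replicate 2 or 3 or sh-Con replicate 2 or 3 (adjusted *P* of 0.114 to 0.164), and that of *CCNE1* without sh1-*TUG1* replicate 1 or 2 or sh-Con replicate 2 (0.0513 to 0.0685). The part of these shifts in the members' values was not tested, and in bulk RNA fewer dividing cells and less RNA of these genes per cell cannot be told apart.

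**Figure D4:**
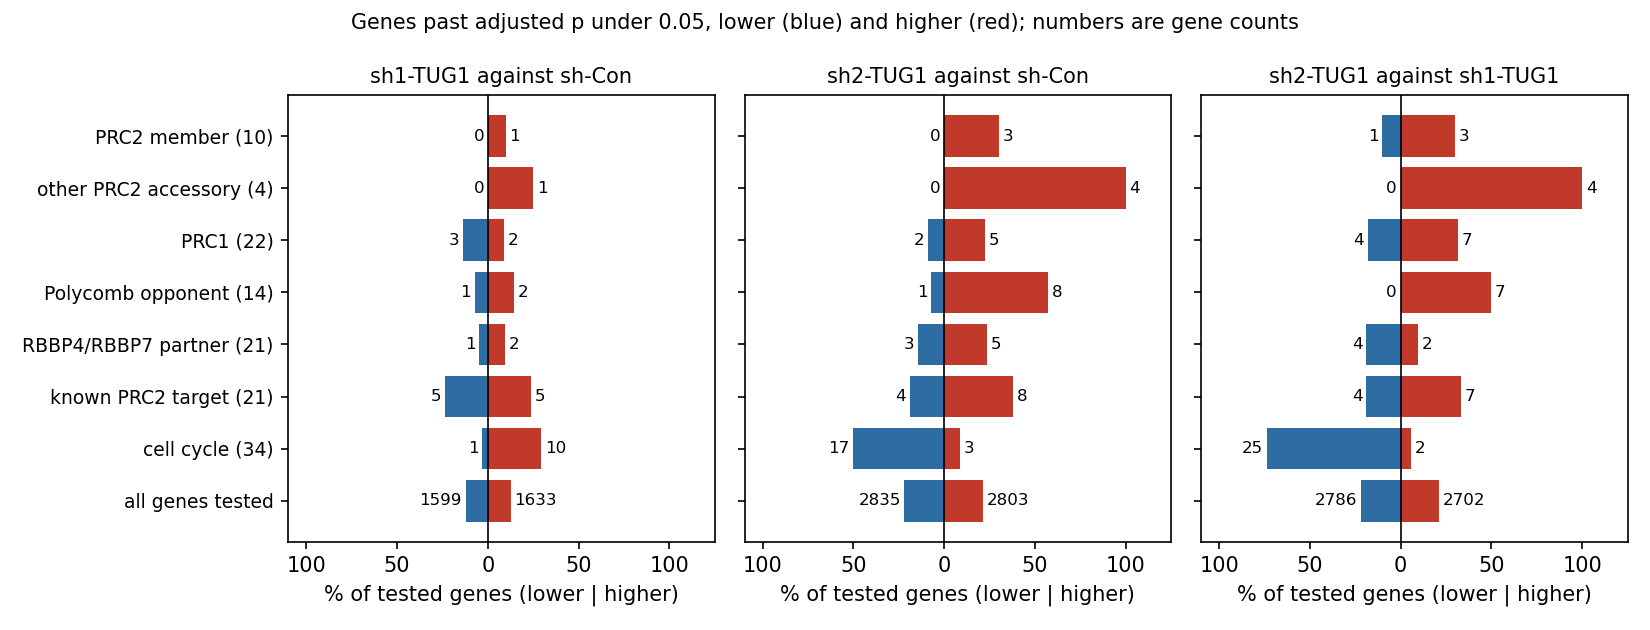
Share of the listed genes of each group (y axis, number of genes tested in parentheses) that were lower (blue, to the left) or higher (red, to the right) at an adjusted *P* under 0.05 in the 3 comparisons; the x axis is in percent of the genes tested and the numbers are gene counts. The PRC2 members show 1, 3 and 3 higher genes of 10, and the cell cycle list shows 17 lower genes with sh2 and 25 between the lines.

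The genes whose log2 CPM followed that of a core member most closely over the 9 libraries were named among 9311 genes with a mean of at least 10 CPM, as a description, since all points share 3 groups and any gene that differs between the groups in the same way correlates. For *SUZ12* they were *KLF4* (Pearson r 0.99), *PPARGC1A* (0.99) and *EGLN2* (0.98). For *EZH2* they were *FBXO45* (0.94), *TRMT13* (0.93) and *LETM1* (0.93). For *EED*, whose groups overlapped, they were *DYNLT1* (0.96), *JTB* (0.96) and *RPLP1* (0.96), none of which is a PRC2 gene.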

How the data were processed

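RNA-seq libraries of control and *TUG1*-knockdown HepG2 cells were made with an NEBNext Ultra kit and sequenced by a company. Per the labels, the submitters' processing notes name HISAT2, StringTie and GRCh38 without versions or roles. The deposited counts are unnormalized reads per gene in 6 libraries a table, and shared genes have the same control counts in both. FPKM values, adjusted p-values (false discovery rate) and log2 fold changes, all computed by the authors, were not used. Rows without an Ensembl identifier held 1.35% to 1.57% of the counts.

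Groups came from the sample labels. Tests used edgeR 4.0.16 in R 4.3.3 (TMM, filterByExpr, quasi-likelihood), with Benjamini–Hochberg adjustment over all genes: 6 libraries for each line against sh-Con, and all 9 for sh2-*TUG1* against sh1-*TUG1*. Per-library CPM values come from the 9-library scaling. Ratios added 0.5 counts and were compared by a two-sided exact permutation test. Scripts were tested on simulated data. Lengths and positions are from GENCODE 29 and promoters from RefSeq. Alternatives were DESeq2 1.42.0, RLE or no scaling factors, other filters, other sets of libraries, a replicate block, a test against a fold change of 1.5 (glmTreat), rows with Ensembl identifiers only, pseudocounts of 0 and 5, and leaving out each library. Named genes are all members, up to 6 genes of each other list that passed with both shRNAs, by the smaller of their changes, and the 3 most alike genes for *EZH2*, *EED* and *SUZ12*; *TXLNG* was named after its overlap was seen. The members and lists were chosen with earlier results of these data known.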

Additional observations from a re-analysis of the deposited data

Results flagged for a closer look

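In the fit of all 9 libraries, 42.7% of all genes passed the test of sh2-*TUG1* against sh1-*TUG1*. Among them were 4 PRC2 genes and 15 of the genes named by rule from the other lists. *PHF1* (0.50), *LCOR* (0.25), *LCORL* (0.32), *CDKN2B* (0.62) and *TXLNG* (0.19), named outside that rule, also passed, all higher in sh2-*TUG1*. On the log2 scale *SUZ12* (0.24), *RBBP4* (0.17) and *AEBP2* (0.24) were higher in sh2-*TUG1*, and *RBBP7* (−0.15) was lower. Of the other Polycomb and chromatin genes, *EPOP* (0.35) and *KDM6A* (0.68) were higher in sh2-*TUG1* and *MTA3* (−0.44) was lower. The cell cycle genes *MYBL2* (−1.23), *PLK1* (−0.93) and *TOP2A* (−1.58) were lower in sh2-*TUG1* after opposite changes against sh-Con. Among PRC2 targets of other cells, *GATA4* (0.17) and *CXXC5* (0.17) were higher and *IGF2* (−0.30) and *DKK1* (−0.44) lower. Among hepatocyte markers, *TF* (0.15) and *ALB* (0.46) were higher and *TTR* (−1.28), *FGB* (−0.20) and *SERPINA1* (−0.35) lower. Some of these calls between the lines were lost when 1 library was left out: *GATA4* without sh2-*TUG1* replicate 1 or 2 or any sh1-*TUG1* library (adjusted *P* of 0.0805 to 0.138), *FGB* likewise (0.0751 to 0.134), *CXXC5* without sh2-*TUG1* replicate 2 or sh1-*TUG1* replicate 3 (0.0651 and 0.0709), and *DKK1* without sh1-*TUG1* replicate 3 (0.0506). Those of *GATA4* (0.11, adjusted *P* = 0.173) and *CXXC5* (0.11, adjusted *P* = 0.102) were also lost with library size alone as the scaling. Of the PRC2 calls, that of *RBBP7* was lost without sh2-*TUG1* replicate 1 or 2 or sh1-*TUG1* replicate 2 or 3 (adjusted *P* of 0.0683 to 0.119). That of *AEBP2* was lost without sh2-*TUG1* replicate 2 or sh1-*TUG1* replicate 2 or 3 (0.0886 to 0.108). With library size alone, *AEBP2* (0.17, adjusted *P* = 0.0900) and *RBBP4* (0.11, adjusted *P* = 0.0585) did not pass.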

How the results depend on the processing

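The calls of *SUZ12* with sh2 and between the lines, and of *RBBP4* with sh2, held under all alternatives but the test against a fold change of 1.5. That test called 0 PRC2 genes in every comparison and 114, 600 and 330 of all genes with sh1, with sh2 and between the lines. Under library size alone, 1 PRC2 gene was higher between the lines, and 4 small differences changed sign: *EED* with sh2 (−0.0077), and *KMT2A* (−0.0047), *CCNE1* (−0.0048) and *AFP* (−0.028) between the lines. When a library was left out, the higher members numbered 0 to 1 with sh1, 2 to 3 with sh2 and 2 to 4 between the lines, and the lower members between the lines 0 to 1. All genes called with sh1 then numbered 2036 to 3779, with 2036 without sh1-*TUG1* replicate 2 and 2081 without replicate 3. The 3779 came without sh-Con replicate 1, more than the 3232 called with all libraries. *EZH2* between the lines ranged from 0.12 to 0.29 (adjusted *P* of 0.286 to 0.0228) and passed only without sh2-*TUG1* replicate 1. Values near 0 changed sign when a library was left out, with ranges of −0.051 to 0.095 (*EZH1*), −0.12 to 0.013 (*MTF2*) and −0.022 to 0.16 (*PHF19*) with sh1, −0.093 to 0.14 (*EED*), −0.050 to 0.025 (*JARID2*) and −0.071 to 0.035 (*PHF19*) with sh2, and −0.17 to 0.0081 (*PHF19*) and −0.048 to 0.014 (*MCM3*) between the lines. With sh1 the *EZH2* to *EZH1* ratio then ranged from −0.047 to 0.20 and the *PHF19* to *MTF2* ratio from −0.042 to 0.23. With sh2 the *RBBP7* to *RBBP4* ratio ranged from −0.17 to −0.065. The −0.17 came without sh-Con replicate 1 (exact permutation *P* = 0.1). The cause of these changes was not tested, and some alternatives also have fewer libraries or a stricter test.

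Libraries with the same replicate number did not deviate together (correlations −0.19 to 0.041), so the numbers do not pair them. The replicate block left the counts of PRC2 genes called at 1, 3 and 3 higher and 0, 0 and 1 lower, with 2769, 4921 and 4910 of all genes called. With the block, adjusted *P* was 0.0652 for *KDM6A*, 0.0679 for *KMT2A* and 0.0732 for *MYBL2* with sh1, 0.0501 for *MTA3* and 0.0636 for *GATA6* with sh2, and 0.0554 for *GATA4* and 0.0579 for *FGB* between the lines; each had passed without it. At group means of 306 to 428 counts a library, changes in *EZH1*, *EED* and *PHF19* under the reach of their intervals were not detectable.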
